A study of Mus musculus with 743 samples.

Results

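The Ngfr/L1cam cells were the noncycling Schwann cells (SCs) of postnatal day 1 (P1) sciatic nerve that had little Ncmap and Cdkn1c RNA and carried reads of Ngfr, L1cam or both. They were selected on measured values. A well was kept with at least 1500 detected genes, and a kept cell was a member when Mki67 and Top2a together stood under 50 CPM (the count divided by the total of that cell, times 1000000), Ncmap was under 50 CPM, Cdkn1c was under 200 CPM, and Ngfr or L1cam was at 10 CPM or more. Of 743 wells, 621 were kept, 511 of the kept cells were noncycling, and 143 of these were members. The other 368 noncycling cells fell into 98 unmarked cells, which met every condition except Ngfr or L1cam, 151 Cdkn1c-high cells with Ncmap under 50 CPM, and 119 Ncmap-positive cells. The remaining 110 kept cells were cycling.

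All cells came from reporter mice in which the Cre recombinase of the P0Cre transgene, active in the SC lineage, switched on eYFP, and which also carried a beta-actin dsred transgene. Nerves of pups were digested to single cells, eYFP-positive cells were sorted 1 per well into 384-well plates, and the RNA of each well was read by Smart-seq2, a full-length method without molecular identifiers. There was 1 plate for each of 2 independent suspensions, each pooled from male and female mice, and no treatment or second genotype. Every group described here therefore comes from the same 2 suspensions, and a cell in which the Cre had not acted was not collected. The plate is the replicate throughout (n = 2), reads of the cells of a class were summed per plate before any test, and p-values measure the spread between these plates.

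Immature SCs surround bundles of axons and sort the larger ones out by radial sorting. Cells that reach a relation with a single large axon become promyelinating SCs and turn on myelin genes, while those that keep several small axons become Remak SCs. Ngfr encodes the p75 neurotrophin receptor, and L1cam and Ncam1 encode adhesion molecules of the immunoglobulin superfamily. All of them are known from immature and Remak SCs and are lost when a cell myelinates. Scn7a encodes a sodium channel protein present in non-myelinating SCs. Ncmap encodes a protein of noncompact myelin, and Cdkn1c encodes the cell cycle inhibitor p57Kip2.

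Members made up 63 of 234 noncycling cells on plate 1 (26.9%, exact 95% binomial interval 21.4 to 33.1%) and 80 of 277 on plate 2 (28.9%, 23.6 to 34.6%), a mean of 27.9% ± 1.38 (SD, n = 2). These intervals cover the counting error of cells only. Cells of 1 plate came from the same pooled suspension and are not independent replicates. The unmarked cells held 22.6% and 16.2%, the Cdkn1c-high cells 25.2% and 33.2%, and the Ncmap-positive cells 25.2% and 21.7% of the noncycling cells. The share of members thus differed less between the plates than that of the other 3 classes. A member had a median of 928401 reads on plate 1 (lowest 50994, highest 1707671) and 775721 on plate 2 (43565 to 1724060), against 935941 and 850604 in all other noncycling cells. Together the members held 53042229 and 54567767 reads.

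The members lay between the classes in the number of genes read. Their median was 2856 and 2819 genes per cell, below the 2979 and 2979 of all other noncycling cells (difference -142 ± 26.2, SD, n = 2) and above the 2636 and 2624 of the unmarked cells. Among the other cells, Cdkn1c-high cells were close to members, at 2876 and 2900 genes. Ncmap-positive cells were far above them, at 3690 and 3550. With every cell thinned to 100000 reads the differences were -149 ± 20.2 genes against all others and 189 ± 50.9 genes against the unmarked cells. Both had the same sign on both plates, and 2 plates are too few for a test of a single value. Members were chosen because Ngfr or L1cam was read in them. The part of that choice in the difference from the unmarked cells was not tested.

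The genes of the rule describe the gate and were not tested. Ngfr stood at 154 CPM of the summed reads on plate 1 and 103 on plate 2 in members, against 0.67 and 0.562 in unmarked cells, 18.6 and 33.3 in Cdkn1c-high cells and 0.575 and 0 in Ncmap-positive cells. L1cam stood at 98.1 and 164 CPM in members, 0.325 and 0.315 in unmarked cells, 19.7 and 29.5 in Cdkn1c-high cells and 0.978 and 1.92 in Ncmap-positive cells. Members carried Cdkn1c at 16.8 and 31.2 CPM, far below the 1403 and 1771 CPM of the Cdkn1c-high cells. L1cam shares positions with Arhgap4 on its own strand and Avpr2 on the other, and whether strand was used in counting was not stated, so its reads cannot be told fully apart from theirs.

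Most members passed on only 1 of the gate genes. On plate 1, 33 cells passed by Ngfr alone, 15 by L1cam alone and 15 by both, and on plate 2 the numbers were 29, 23 and 28. Among cells passing for Ngfr the lowest, median and highest level was 12, 150 and 805 CPM on plate 1 and 10.5, 141 and 931 on plate 2. Among those passing for L1cam it was 10.5, 163 and 727 CPM, and 11.8, 185 and 1109. The levels therefore spread over almost 2 orders of magnitude within the gate, and 3 cells held 20.4% and 27.1% of all Ngfr reads and 41.7% and 25.5% of all L1cam reads of the members.

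At the edge of the gate the classes were close. The better of both genes was between 10 and 20 CPM in 6 and 4 members, the lowest being 10.5 and 11.7 CPM. It was between 5 and 10 CPM in 8 and 6 unmarked cells, the highest being 9.46 and 8.55 CPM. In a member of median depth 10 CPM corresponds to 9.28 and 7.76 reads, and 16 and 11 unmarked cells had at least 1 read of either gene. The unmarked class thus holds cells in which the genes were read below the limit.

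L1cam was read at 10 CPM or more in 31.2% (18.7 to 46.3%) of the cells passing for Ngfr on plate 1 and 49.1% (35.6 to 62.7%) on plate 2. Among cells of the same Ncmap and Cdkn1c levels without Ngfr it was 22.1% (12.9 to 33.8%) and 33.8% (22.8 to 46.3%). The share was higher with Ngfr on both plates, and the intervals overlap. Inside the member class the correlation of log2(CPM + 1) of Ngfr and L1cam was -0.213 over 63 cells and -0.43 over 80 cells, a sign that the gate itself favours, since a cell with neither gene is left out.

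**Figure D1:**
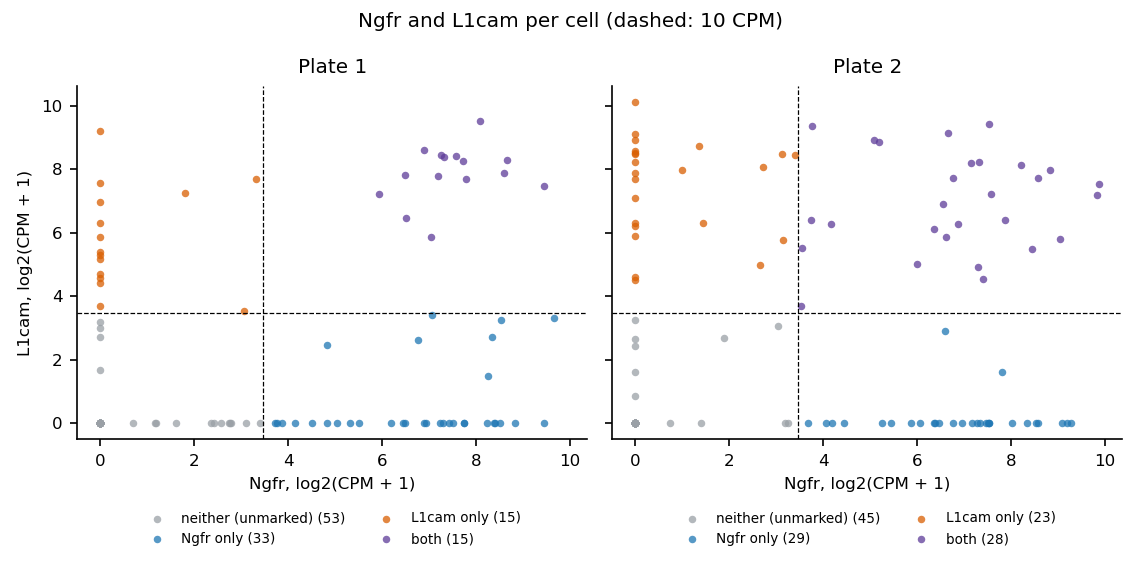
Ngfr (horizontal) and L1cam (vertical) as log2(CPM + 1) in single cells of plate 1 (left) and plate 2 (right). Each point is 1 cell, coloured by the gene that let it pass, grey points are unmarked cells and dashed lines stand at 10 CPM. Most members lie along 1 axis, and 15 and 28 cells lie above both lines.

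As a group the members had reads of all 10 genes of an SC identity list, at uneven levels. The list summed to 7123 and 5584 CPM in members, below the 7793 and 6983 of all other noncycling cells. Split by gate gene, each plate's groups had Sox9 at 6.04 CPM or less, in 10.3% of cells at most. Fabp7 was read in 6.67 to 17.4% of the cells of these groups. Sox10, the SC lineage transcription factor, was at 213 and 230 CPM and was read in 81.0% and 83.8% of members, and Erbb3, the neuregulin receptor, was at 333 and 226 CPM. None of the 9 tested genes of this list of 10 differed from all other noncycling cells when tested with edgeR (quasi-likelihood F-test, p adjusted over all genes by Benjamini-Hochberg, limit 0.05). An unadjusted p under 0.05 was found for 2 of them, DESeq2 called 1 and limma called 0, beside 1333, 585 and 24 of all 13058 genes. Some of the listed markers of other cell types had no read in any member. For endothelial cells these were Cdh5, Kdr, Emcn and Tek, and for immune cells Ptprc, Tyrobp, Aif1 and Lyz2. For mural cells they were Acta2, Rgs5 and Myh11, and for neurons Rbfox3, Syt1, Stmn2, Elavl4 and Prph. For melanocytes they were Mlana and Tyr, and for fibroblasts Pdgfra and Lum.

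The other markers of those lists were not absent. Among them Pecam1, Cd68, Csf1r, Dcn, Pmel and Mitf had reads in some members. Csf1r was read in 17.4% of the members of plate 2 that passed by L1cam alone (48.4 CPM). Pmel was read in 15.2% of those of plate 1 that passed by Ngfr alone (9.03 CPM). The summed level over 6 endothelial markers was 0.0566 and 0.11 CPM, over 6 immune markers 4.15 and 28.8, over 6 mural markers 28.4 and 37.9 and over 8 neuronal markers 13.9 and 18.2. For all other noncycling cells these sums were 2.94 and 1.03, 19.6 and 12.7, 47.7 and 53.5, and 13 and 18.5 CPM. The 4 perineurial markers summed to 106 and 106 CPM against 39.7 and 52.0, with Cldn1 and Lypd2 at 0 and most of the sum in Itgb4, a laminin receptor subunit that SCs also use. The 6 fibroblast markers summed to 11001 and 10277 CPM against 7863 and 7695, nearly all of it from the collagens Col1a1, Col1a2 and Col3a1, and the 8 melanocyte and satellite glia genes to 4294 and 5948 against 2676 and 3204, nearly all of it Apoe. The part of other cells in these sums was not tested.

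The label of immature cells rests on Ncam1 and Scn7a besides the gate. Ncam1 was read in 100% of members on both plates, at 652 and 473 CPM. It was at 564 and 407 CPM in unmarked cells, 433 and 446 in Cdkn1c-high cells, 158 and 173 in Ncmap-positive cells and 611 and 568 in cycling cells. Members and unmarked cells were close, and only the Ncmap-positive cells stood clearly lower. The log2 fold change was 1.72 (SE 0.261, edgeR adjusted p = 0.00676) against Ncmap-positive cells, 0.62 (SE 0.228, adjusted p = 0.463) against all other noncycling cells and 0.17 (SE 0.254, adjusted p = 0.948) against unmarked cells. Gm11149 lies antisense within Ncam1.

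Scn7a differed more than Ncam1 between members and unmarked cells. It was at 202 and 152 CPM in members, 87.6 and 60.8 in unmarked cells, 48.1 and 35.9 in Cdkn1c-high cells, 1.25 and 12.6 in Ncmap-positive cells and 85.9 and 78.1 in cycling cells. Members were highest on both plates, and no other class overlapped them. The members that passed by L1cam alone, however, were at 84.5 and 95.5 CPM, near the unmarked and cycling cells. Reads of Scn7a were present in 68.3% and 62.5% of members and in 32.1% and 35.6% of unmarked cells, and in 60.0% and 56.2% against 30.2% and 33.3% after thinning to 100000 reads. Cycling cells were close to members in this share, with 53.8% and 52.8% after thinning. The log2 fold change was 2.14 (SE 0.328, edgeR adjusted p = 0.151) against all other noncycling cells, 1.21 (SE 0.806, adjusted p = 0.753) against unmarked cells and 4.63 (SE 0.925, adjusted p = 0.029) against Ncmap-positive cells. Scn7a therefore passed the test against Ncmap-positive cells alone.

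Of 18 genes linked to immature or Remak SCs, 17 passed the filter on low counts. None passed the edgeR test against all other noncycling cells. An unadjusted p under 0.05 was found for 7, all higher, and DESeq2 called 4 and limma 1, beside 1333, 585 and 24 of all 13058 genes tested. The median log2 fold change of the list was 0.89 beside -0.02 over all genes. Against unmarked cells the median was 0.44 beside 0.04, with 0 called by edgeR, 2 at an unadjusted p under 0.05, 1 called by DESeq2 and 0 by limma (1, 855, 531 and 0 of all 13144 genes). Gap43 was at 1.38 and 1.72 CPM and Sox2 at 15.9 and 17.8 CPM in members, and Gfap, a filament protein of mature Remak cells, had no read. Since the list as a whole did not set the cells apart, they are called Ngfr/L1cam cells here.

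Against Ncmap-positive cells 6 of the 17 genes were higher and none lower, where 1.52% of all 13144 genes tested were higher and 0.883% lower. They were Chl1, a relative of L1cam (197 and 188 CPM against 9.88 and 11.9, log2 fold change 4.09, edgeR adjusted p = 0.00239), Scn7a, Matn2, which encodes a matrix protein (1355 and 1163 against 213 and 249), Jun, a transcription factor that opposes myelination (511 and 662 against 132 and 139), Ncam1, and Ednrb, the endothelin B receptor (4272 and 3780 against 1186 and 1673). The list's median was 1.72 beside 0.01 over all genes. The classes were drawn on genes measured in the same cells, so that a gene that moves with Ncmap, Cdkn1c, Ngfr or L1cam from cell to cell differs between classes by that choice. All comparisons also share the members' libraries.

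**Figure D2:**
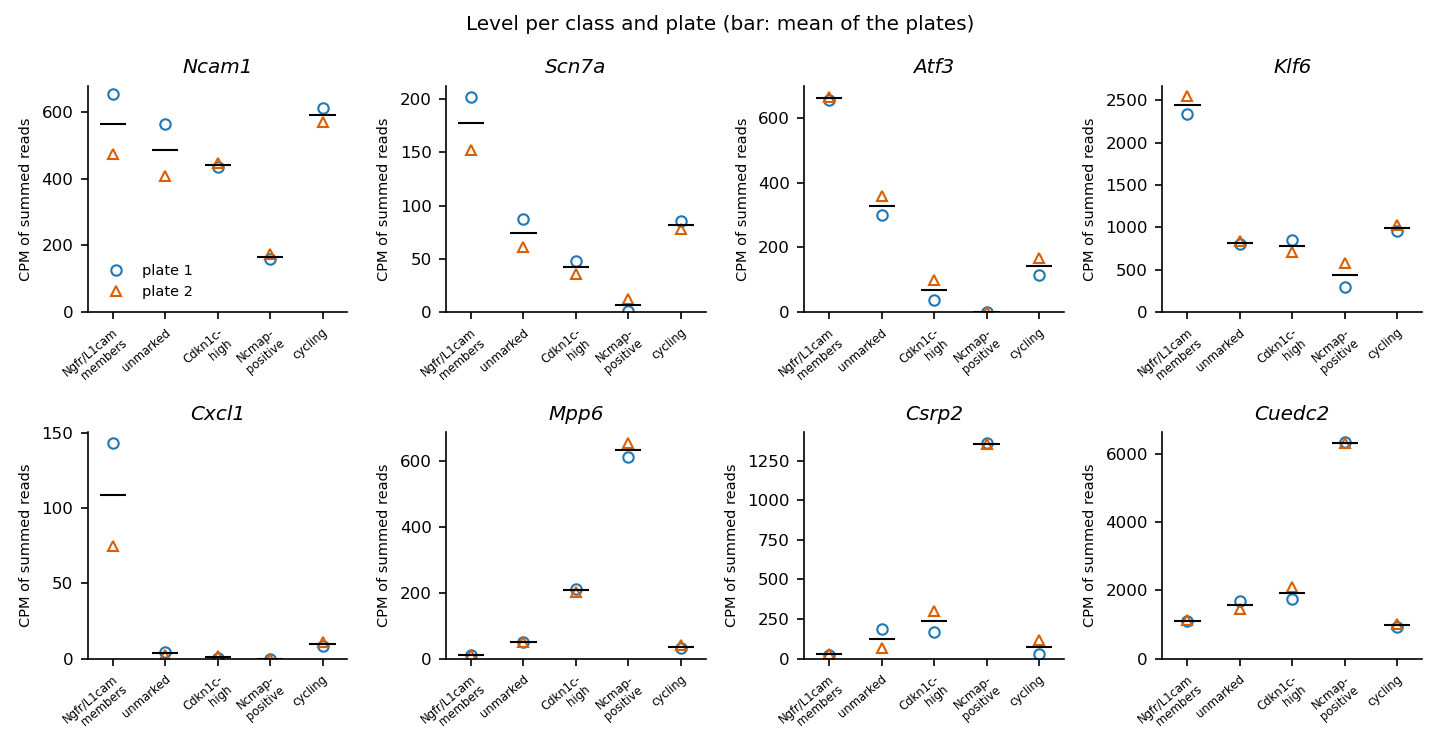
Level of 8 genes in each class of cells as CPM of the summed reads (linear vertical axes from 0). Circles are plate 1, triangles plate 2 and bars the mean of both. Scn7a, Atf3, Klf6 and Cxcl1 were highest in members on both plates, and Mpp6 was lowest in members, at 10.2 and 10.6 CPM.

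Against all other noncycling cells the edgeR test called 6 of 13058 genes. 3 were higher in members, a background of 0.023% of the genes tested, and 3 were lower, again 0.023%. A p under 0.05 before adjustment was found for 1333 genes. The higher genes encode Atf3, a stress-induced transcription factor known from injured SCs, Klf6, a zinc finger transcription factor, and Cxcl1, a chemokine. The lower genes encode Mpp6, a scaffold protein of the membrane-associated guanylate kinase family found in myelinating SCs, Csrp2, a LIM domain protein, and Cuedc2, a ubiquitin-binding protein. With the gate at 50 CPM in place of 10 CPM, Csrp2 alone of these 6 passed. Klf6 did not pass after thinning to 100000 reads (edgeR adjusted p = 0.0525), Cxcl1 did not with a minimum of 1000 or 2500 genes per cell (0.0539 and 0.0548), and Mpp6 did not with 2500 (0.249). With 2-fold on both plates as the rule, among 4194 genes at 50 CPM or more, 145 were higher (3.46%) and 119 lower (2.84%).

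Atf3 (chromosome 1, positions 191170296 to 191218039, GRCm38, minus strand) stood at 655 and 665 CPM in members, 301 and 358 in unmarked cells, 36.8 and 99.1 in Cdkn1c-high cells and 0 and 1.09 in Ncmap-positive cells. It was read in 54.0% and 53.8% of members, and 29 and 37 members had none. The log2 fold change against all other noncycling cells was 2.42 (SE 0.2, edgeR adjusted p = 0.0364). Against unmarked cells it was 0.95 (SE 0.875, adjusted p = 0.849), and the difference from cells that lack only the gate genes was not detectable with these plates. Gm24748 lies antisense to Atf3.

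Klf6 (chromosome 13, 5861482 to 5870394, plus strand) was read in 61 of 63 and 76 of 80 members. Its level was 2341 and 2555 CPM in members, 801 and 839 in unmarked cells, 847 and 714 in Cdkn1c-high cells and 299 and 577 in Ncmap-positive cells. The members stood above every other class on both plates, 2.92-fold and 3.04-fold above the unmarked cells. For Klf6 the log2 fold change was 1.86 (SE 0.148, edgeR adjusted p = 0.0363) against all other noncycling cells and 1.53 (SE 0.279, adjusted p = 0.39) against unmarked cells. Across members Atf3 and Klf6 correlated with r of 0.325 over 63 cells and 0.403 over 80 cells, as log2(CPM + 1), in cells that also share their depth.

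Cxcl1 (chromosome 5, 90891241 to 90893115, plus strand) was a gene of few cells. It was at 143 and 75 CPM in members, 4.17 and 2.79 in unmarked cells and 0.293 and 1.87 in Cdkn1c-high cells, and had no read in Ncmap-positive cells. All of its reads in members came from 6 cells on each plate, 3 of which held 85.0% and 83.8%, and 5 of the 6 on each plate also had Atf3. Against all other noncycling cells its log2 fold change was 6.20 (SE 0.566, edgeR adjusted p = 0.0488), and against unmarked cells it was 4.93 (SE 1.101, adjusted p = 0.546). With the plate as a block the first adjusted p was 0.0558, and Cxcl1 no longer passed. With the gate at 50 CPM, which counts the members below it among the other cells, the log2 fold change was 1.65 (edgeR adjusted p = 0.647).

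The sequence before the start of these genes is shown because they were the only ones called higher. The windows are the 250 bases before the transcription start in RefSeq (GRCm38.p6), written 5′ to 3′ on the strand of the gene in lower case. They cover chr5:90890995-90891244 (plus) for Cxcl1, chr1:191183334-191183583 (minus) for Atf3 and chr13:5861239-5861488 (plus) for Klf6. The gene positions given above are from GENCODE. For Atf3 the RefSeq start used here lies inside that span, so its window is not the sequence upstream of the span. Capitals mark a κB-type element (GGAATTTCC), GC boxes (GGGCGG) and CCAAT boxes (CCAAT), on either strand.
Cxcl1: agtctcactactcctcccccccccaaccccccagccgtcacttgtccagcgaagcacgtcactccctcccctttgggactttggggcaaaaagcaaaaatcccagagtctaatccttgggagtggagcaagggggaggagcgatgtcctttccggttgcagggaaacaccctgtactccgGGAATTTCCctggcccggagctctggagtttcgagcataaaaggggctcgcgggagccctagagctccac
Atf3: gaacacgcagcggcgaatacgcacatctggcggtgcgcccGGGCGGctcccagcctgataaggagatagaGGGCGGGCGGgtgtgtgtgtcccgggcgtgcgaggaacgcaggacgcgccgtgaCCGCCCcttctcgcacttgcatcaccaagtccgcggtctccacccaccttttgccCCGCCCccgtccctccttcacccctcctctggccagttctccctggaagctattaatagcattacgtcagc
Klf6: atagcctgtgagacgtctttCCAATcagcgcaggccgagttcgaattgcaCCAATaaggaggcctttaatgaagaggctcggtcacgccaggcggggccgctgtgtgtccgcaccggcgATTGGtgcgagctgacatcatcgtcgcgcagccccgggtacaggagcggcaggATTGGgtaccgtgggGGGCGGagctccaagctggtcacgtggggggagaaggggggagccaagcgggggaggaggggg

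The Cxcl1 window held 1 κB-type element, 70 bases before the start, a run of letters that 0.317% of all 32851 windows of 300 bases in the table held. The Atf3 window held 5 GC boxes, and the Klf6 window held 4 CCAAT boxes, 230, 200, 131 and 78 bases before the start, and 1 GC box. GC boxes were in 35.7% and CCAAT boxes in 37.4% of all windows. The cyclic AMP response element TGACGTCA (1.79% of windows) and the AP-1 element TGACTCA (5.2%) were searched on both strands and were in none of the 3 windows. A match describes letters only. For Csrp2 and Ncam1 no window was used.

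Mpp6 (chromosome 6, 50110241 to 50198939, plus strand) was nearly absent from members. It was at 10.2 and 10.6 CPM in members, 49.4 and 49.9 in unmarked cells, 212 and 203 in Cdkn1c-high cells and 611 and 653 in Ncmap-positive cells. Plates differed by little within each of these noncycling classes, and they did not overlap. Only 2 of 63 and 5 of 80 members had a read, against 98.3% and 96.7% of Ncmap-positive cells. Against all other noncycling cells the log2 fold change was -4.81 (SE 0.27, edgeR adjusted p = 0.00612).

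Mpp6 was also the only gene called against unmarked cells, of 13144 tested, with 0 called higher (0.0%) and 1 lower (0.00761%). There its log2 fold change was -2.30 (SE 0.254, edgeR adjusted p = 0.0417). An unadjusted p under 0.05 was found for 855 genes in that comparison, DESeq2 called 531 and limma called 0. Mpp6 was not called there after thinning, with 1000 or 2500 genes as the minimum per cell, or with the gate at 50 CPM. Gsdme, the gene of a pore-forming protein, overlaps the end of Mpp6 on the opposite strand and was at 38.5 and 61.9 CPM in members against 176 and 198 in unmarked cells and 951 and 1793 in Ncmap-positive cells. Reads of the shared stretch could be counted for either gene, and the values of both are uncertain to that extent. Gsdme was looked up after the Mpp6 result was known.

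Csrp2 (chromosome 10, 110919789 to 110939622, plus strand) was at 26.2 and 31.6 CPM in members, 186 and 68.5 in unmarked cells, 166 and 303 in Cdkn1c-high cells and 1360 and 1355 in Ncmap-positive cells. For Csrp2 the log2 fold change was -4.27 (SE 0.226, edgeR adjusted p = 0.00612) against all other noncycling cells. Cuedc2 (chromosome 19, 46329812 to 46338702, minus strand), which overlaps Fbxl15 and Gm26792 on the other strand, was at 1092 and 1145 CPM in members, 1676 and 1447 in unmarked cells, 1742 and 2103 in Cdkn1c-high cells and 6352 and 6307 in Ncmap-positive cells. Its log2 fold change was -1.52 (SE 0.137, edgeR adjusted p = 0.0488). Csrp2 and Cuedc2 were highest in Ncmap-positive cells, which the rule left out by their Ncmap level.

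**Figure D3:**
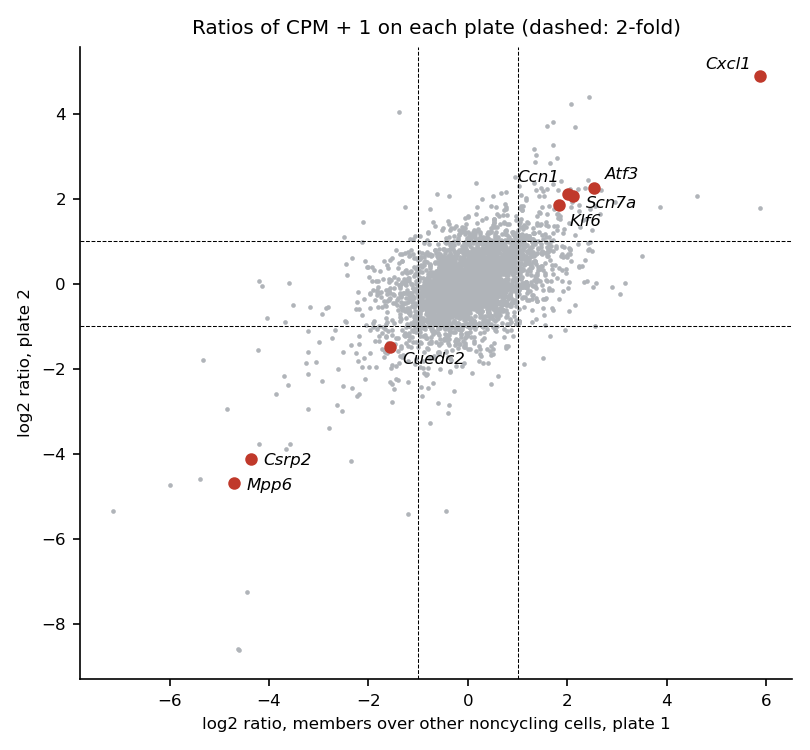
Ratio of the level in members to that in all other noncycling cells, log2 of CPM + 1, on plate 1 (horizontal) and plate 2 (vertical). Each point is a gene at 50 CPM or more and dashed lines mark 2-fold. Cxcl1, Atf3, Klf6 and Scn7a lie beyond 2-fold higher and Mpp6, Csrp2 and Cuedc2 beyond 2-fold lower on both plates, among 145 higher and 119 lower genes.

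With the plate as a block 16 genes were called against all other noncycling cells, 8 higher and 8 lower, and 5 of the 6 genes above were among them. Those added included Fos, an immediate-early transcription factor (6060 and 6475 CPM in members, 4177 and 4361 in unmarked cells, 1871 and 1961 in Ncmap-positive cells, adjusted p = 0.0239 with the block), Ccn1, a secreted matricellular protein and target of Yap and Taz (2781 and 4281, 1234 and 1927, 221 and 158 CPM), and Apoe, a lipid carrier (4193 and 5839, 3354 and 4710, 1440 and 1713 CPM). Prx and Pmp22, genes of myelin proteins, were added on the lower side, with adjusted p = 0.0434 and 0.0404. Ccn1 was named after its values were seen.

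Of the 15 lists the immediate-early and stress genes stood highest in members against all other noncycling cells. The 18 genes include those known to be induced when tissue is digested, and 17 passed the filter. Against all other noncycling cells 2 were called higher, Atf3 and Cxcl1, where 0.023% of all genes tested were, and none lower. The median log2 fold change was 1.55 beside -0.02 over all genes. Of the 16 at 50 CPM or more, 11 were 2-fold higher on both plates, where 3.46% of all 4194 such genes were. Against unmarked cells the median was 0.69 beside 0.04, with 0 called by edgeR, 5 at an unadjusted p under 0.05, 3 called by DESeq2 and 0 by limma (1, 855, 531 and 0 of all 13144 genes). On both plates 3 were then 2-fold higher, where 3.02% of 4244 genes were.

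The summed level of this list was 11335 and 12459 CPM in members, 7624 and 8030 in unmarked cells, 4524 and 5715 in Cdkn1c-high cells, 2746 and 3092 in Ncmap-positive cells and 6151 and 8854 in cycling cells. Members were highest on both plates. Among single genes, Egr1 was at 921 and 1075 CPM against 600 and 718 in unmarked cells, Dusp1, a phosphatase that switches off kinase signalling, at 414 and 544 against 132 and 238, and Nr4a1, a nuclear receptor, at 1186 and 1094 against 593 and 822. None of these passed the test against all other noncycling cells. Against Ncmap-positive cells 12 of 17 were called higher, where 1.52% of all genes tested were, with a median of 3.23 beside 0.01 over all genes.

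The called genes were also looked at without the cells that had a read of Atf3, an alternative chosen after the values were seen. This left 29 and 37 members. The log2 fold change of Klf6 was then 1.41 (edgeR adjusted p = 0.381), that of Mpp6 -4.99 (adjusted p = 0.28), that of Csrp2 -3.74 (adjusted p = 0.127) and that of Cuedc2 -1.48 (adjusted p = 0.28). With all cells these 4 values were 1.86, -4.81, -4.27 and -1.52. Cxcl1 was at 5.72 (edgeR adjusted p = 0.417), against 6.20 with all cells. Of 12543 genes 0 were called (1458 at an unadjusted p under 0.05), and why the calls were lost was not tested. The part of the digestion in any of these differences was not tested.

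Of the 15 lists the myelin genes stood lowest against all other noncycling cells, of which the Ncmap-positive cells are a part. Of 20 genes of promyelinating and myelinating SCs 1, Mpp6, was called lower against all other noncycling cells and none higher, 17 had an unadjusted p under 0.05, all lower, and the median log2 fold change was -1.83 beside -0.02. Of the 16 at 50 CPM or more, 10 were 2-fold lower on both plates, where 2.84% of all 4194 such genes were. An unadjusted p under 0.05 was found for 1333 of all 13058 genes, in either direction. Against unmarked cells, which were cut on Ncmap in the same way, the median was -0.40 beside 0.04, or -0.35 with genes without a read in 1 class set at the limit that 3 reads give. None of the 12 genes then at 50 CPM or more was 2-fold lower on both plates, beside 2.17% of 4244 genes. Mpp6 was the only gene of the list called. It was over 2-fold lower on both plates but stood just under 50 CPM in unmarked cells, so that count left it out.

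Members were not without myelin RNA. Mbp, myelin basic protein, was at 2556 and 2815 CPM in members, 1713 and 1969 in unmarked cells and 8156 and 7925 in Ncmap-positive cells, and was thus higher in members than in unmarked cells on both plates (log2 fold change 0.50, edgeR adjusted p = 0.729). Egr2, the transcription factor that drives myelination, was at 130 and 87.7 CPM against 135 and 51.9 in unmarked cells and 333 and 307 in Ncmap-positive cells. Pou3f1, a factor of the promyelinating step, was at 80.3 and 75.9 CPM against 109 and 103 and against 188 and 231. Dusp15, at 4.98 and 5.61 CPM, was at 29.8 and 32.0 in unmarked cells (log2 fold change -2.59, adjusted p = 0.439).

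The p75 receptor works with co-receptors, ligands and adaptors, of which 23 were listed and 16 passed the filter. None passed the edgeR test against all other noncycling cells, 2 had an unadjusted p under 0.05, DESeq2 called 1 and limma 0, and the median log2 fold change was 0.21. These counts were near the shares of all 13058 genes, of which 1333 had such a p and DESeq2 called 585. The ligands Bdnf, Ntf3 and Ntf5 and the co-receptors Lingo1 and Rtn4r had no read in any member. Ntrk3, the receptor TrkC, was at 256 and 249 CPM in members, 93.5 and 152 in unmarked cells, 113 and 82.6 in Cdkn1c-high cells and 12.1 and 69.2 in Ncmap-positive cells. Members were highest on both plates (log2 fold change 1.59, SE 0.249, edgeR adjusted p = 0.157 against all others). Sort1, the sortilin co-receptor, was at 56.7 and 120 CPM, within the range of the other classes.

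Of 22 genes for L1-type adhesion and axon contact, 20 passed the filter and none passed the test against all other noncycling cells, with a median of -0.23. An unadjusted p under 0.05 was found for 9, and DESeq2 called 4 and limma 0, beside 1333, 585 and 24 of all 13058 genes. Against Ncmap-positive cells, where 1.52% of all genes tested were higher and 0.883% lower, 3 were higher, namely Chl1, Cadm1 (451 and 760 CPM against 142 and 80.5) and Ncam1. 3 were lower, namely Gldn, the nodal protein gliomedin, with no read in members against 67.5 and 88.8 CPM, Mag, the adhesion molecule of myelinating glia (30.1 and 63.0 against 473 and 439), and Ezr, a linker of the membrane to actin (151 and 182 against 590 and 525). Cntn2 and Cntnap2 had no read in any class.

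Among 21 sodium channel and transport genes 17 passed the filter, with a median of 0.68 and none called against all other noncycling cells. An unadjusted p under 0.05 was found for 8, and DESeq2 called 5 and limma 2, beside 1333, 585 and 24 of all 13058 genes. Against Ncmap-positive cells, where 1.52% of all genes tested were higher and 0.883% lower, Scn7a, Scn8a, Scn9a and Fxyd1 were higher. There 3 genes, Fxyd6 and Kcnj10 among them, were lower. Fxyd1, a regulator of the sodium pump, was at 299 and 283 CPM in members, 193 and 259 in unmarked cells, 131 and 125 in Cdkn1c-high cells and 32.0 and 47.6 in Ncmap-positive cells. Kcnj10, an inward rectifier potassium channel, ran the other way, at 62.8 and 86.7, 147 and 144, 230 and 133, and 489 and 451 CPM.

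**Figure D4:**
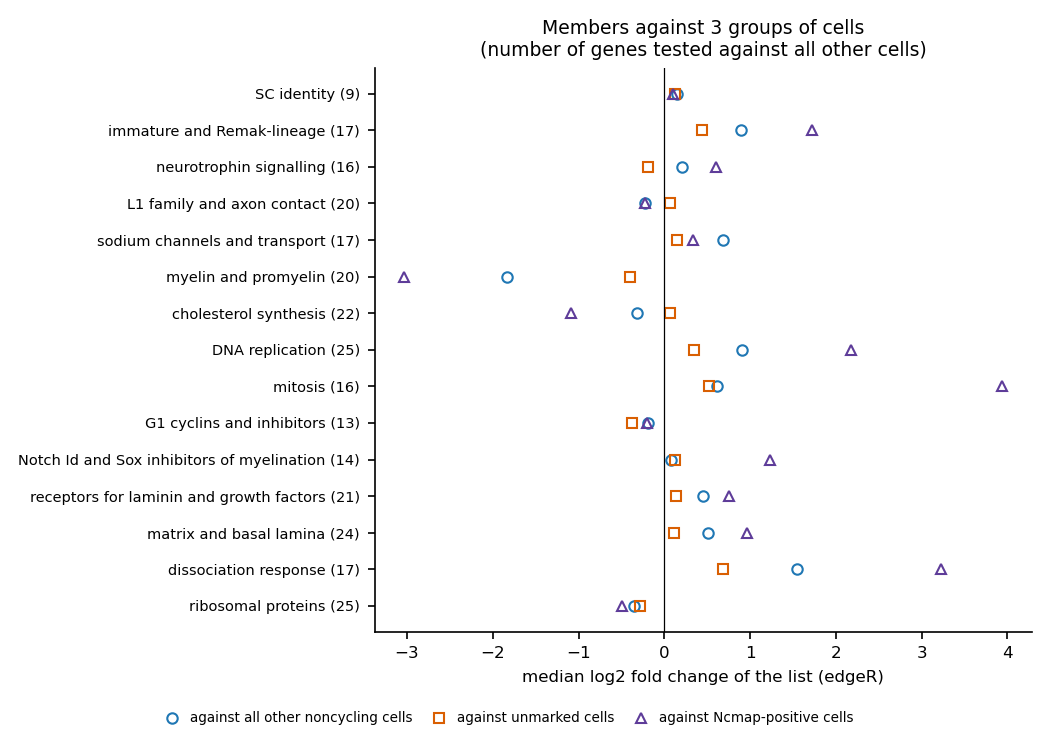
Median log2 fold change (edgeR) of 15 gene lists in members against all other noncycling cells (circles), unmarked cells (squares) and Ncmap-positive cells (triangles), with the number of genes tested in brackets. The immediate-early and stress list stood highest against all other cells, at 1.55, and the myelin list lowest, at -1.83. Against unmarked cells these medians were 0.69 and -0.40.

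The remaining lists had 0 genes called against all other noncycling cells. Their medians were 0.51 for 24 matrix and basal lamina genes (11 at an unadjusted p under 0.05, all higher, 7 called by DESeq2 and 0 by limma), 0.45 for 21 receptors for laminin and growth factors, 0.08 for 14 Notch, Id and Sox genes, -0.32 for 22 genes of cholesterol synthesis and -0.35 for 25 ribosomal protein genes. For 13 G1 cyclins and inhibitors the median was -0.19, with Cdkn1a, the inhibitor p21, at 299 and 361 CPM in members, 404 and 479 in unmarked cells and 1622 and 1813 in Ncmap-positive cells. DESeq2 called 3 of the receptors, 3 of the Notch, Id and Sox genes and 3 of the G1 genes, and limma called 1 G1 gene. Over all 13058 genes DESeq2 called 585 and limma 24, and 1333 had an unadjusted p under 0.05.

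Genes of replication and mitosis were read in members although Mki67 and Top2a had been cut. The median was 0.91 for 25 replication genes and 0.62 for 16 mitosis genes, with none called (3 and 2 at an unadjusted p under 0.05, 0 and 1 called by DESeq2, 0 and 0 by limma). Those counts were near or below the shares of all 13058 genes, of which 1333 had such a p and DESeq2 called 585. Pcna, the polymerase clamp, was at 203 and 171 CPM in members, 202 and 188 in unmarked cells and 572 and 576 in cycling cells. Ccnb2, a mitotic cyclin, was at 112 and 58.7 CPM in members, 0.383 and 5.73 in unmarked cells and 1102 and 1010 in cycling cells, and only 6 of 63 and 6 of 80 members had a read of it. The mitosis list summed to 236 and 388 CPM in members, 163 and 190 in unmarked cells, 422 and 246 in Cdkn1c-high cells and 75.8 and 88.4 in Ncmap-positive cells. Against Cdkn1c-high cells its median log2 fold change was -0.14, so mitotic RNA was not particular to members. Over all kept cells 8 had Mki67 and Top2a together above 10 and under 50 CPM.

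The widest comparison was that with Ncmap-positive cells, in which 200 of 13144 genes were higher (1.52%) and 116 lower (0.883%) in edgeR. By size, the higher genes at 50 CPM or more were led by Cxcl1, Spc24, Adamts15, Fgl2 and Emp1. Counted in reads, with 0 in Ncmap-positive cells and a floor of 3 over that group, Cxcl1 was at least 3770-fold higher. Spc24, a kinetochore gene (55.7 and 58.6 CPM in members), was at least 1990-fold higher. Their reads came from 12 and 20 members. With limma the log2 fold changes of Cxcl1 and Spc24 were 6.92 and 5.68. Adamts15, a secreted protease, had 6316 reads in 21 members and 1 in Ncmap-positive cells (ratio 6120, counting interval 1100 to 242000). Fgl2, which encodes a secreted fibrinogen-like protein, had 7594 reads in 21 members against 2 reads (ratio 3680, 1020 to 30400). Reads are not independent molecules, so these folds and counting intervals do not cover the spread between cells. With a minimum of 2500 genes per cell Spc24 and Fgl2 no longer passed (edgeR adjusted p = 0.0508 and 0.104).

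Emp1, a relative of Pmp22, was carried by more cells than those 4 genes. It was read in 61 members and 3 Ncmap-positive cells, and stood at 114 and 111 CPM in members. Unmarked cells were at 43.1 and 74.0, Cdkn1c-high cells at 52.5 and 23.2 and Ncmap-positive cells at 0.134 and 0 CPM. Cycling cells were at 79.6 and 148 CPM, below members on plate 1 and above them on plate 2. Emp1 was read in 52.8% and 47.4% of cycling cells and in 39.7% and 45.0% of members. The ratio of members to Ncmap-positive cells was 1670 (812 to 4160). Of the lower genes Gldn, Ecscr and Slc9a3 had no read in members and were read in 49, 32 and 33 Ncmap-positive cells. Counted in reads they were at least 2800-fold, 2630-fold and 2080-fold lower. Cdh1, the E-cadherin of junctions within the myelinating SC, had 7 reads in 2 members against 8053 in 42 Ncmap-positive cells (1190-fold lower, 576 to 2960). Il16, the gene of a cytokine precursor, had 21 reads in 1 member against 9108 reads in 63 Ncmap-positive cells. Slc9a3 did not pass with the plate as a block (edgeR adjusted p = 0.0594) or with the 2500-gene minimum (0.0546), Cdh1 did not with the latter (0.158), and Gldn did not with a minimum of 1000 genes (0.0817). Without the cells that had a read of Atf3, Emp1 and Gldn alone of these 10 genes passed.

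Against Cdkn1c-high cells 0 genes were higher (0.0%, edgeR) and 2 of 13144 lower (0.0152%), with 751 at an unadjusted p under 0.05, 420 called by DESeq2 and 6 by limma. They were Mpp6 (log2 fold change -4.32, SE 0.277, edgeR adjusted p = 0.000224) and Nipal1, the gene of a magnesium transporter. Nipal1 was at 105 and 106 CPM in members, 326 and 358 in unmarked cells, 469 and 416 in Cdkn1c-high cells and 579 and 450 in Ncmap-positive cells (log2 fold change -2.07, SE 0.242, adjusted p = 0.0353). In cycling cells Nipal1 was at 117 and 248 CPM, near the members on plate 1 only. It was read in 30.2% and 31.2% of members and in 34.0% and 38.6% of cycling cells. Neither gene passed with a minimum of 2500 genes per cell, and Mpp6 did not with the gate at 50 CPM. With the plate as a block 9 genes were called in this comparison, 3 higher and 6 lower.

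Without a test, 128 of 4244 genes at 50 CPM or more were 2-fold higher in members than in unmarked cells on both plates (3.02%) and 92 were 2-fold lower (2.17%). Cells passing for Ngfr alone and for L1cam alone were compared within the members. edgeR called 0 of 11239 genes, 405 had an unadjusted p under 0.05, DESeq2 called 304 and limma 0. The plates differed widely in these smaller groups of 15 to 33 cells.

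Scn7a was higher with Ngfr on both plates, at 256 and 177 CPM in Ngfr-only cells, 84.5 and 95.5 in L1cam-only cells and 174 and 193 in cells with both (log2 fold change 1.29, SE 0.475, edgeR adjusted p = 1.0). Atf3 was at 791 and 483 CPM in Ngfr-only cells, 457 and 346 in L1cam-only cells and 490 and 1214 in cells with both. Klf6 was at 2488 and 2270, 1910 and 2086, and 2381 and 3382 CPM. Mpp6 had no read in the 43 cells with both genes and was at 13.4 and 21.5 CPM in Ngfr-only and 11.9 and 10.5 CPM in L1cam-only cells. For Atf3 and Klf6 the L1cam-only cells were lowest on both plates, and the order of the other groups changed from plate to plate.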

How the data were processed

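Each of the 743 wells was a single sorted SC sequenced by Smart-seq2. The deposited values are raw read counts per Ensembl gene (25700 genes), for which the submitters' processing notes name bcl2fastq, STAR 2.6.1c, featureCounts and GRCm38.p5. Strand use and doublet removal were not given in the sources used here, and no doublet caller was run on the single-cell wells. GENCODE M21 gave symbols for 25587 IDs and positions. No kept cell repeated another well's counts.

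CPM was count over well total. The sum over the cells of a class on 1 plate was the unit of the edgeR 4.0.16 tests (TMM, filterByExpr, robust quasi-likelihood fit, R 4.3.3), with 4 sums for members and all other noncycling cells and 8 sums for the 4 noncycling classes. The 6 rule genes were not tested. Cells of 1 plate came from the same mice, so plates pair the sums. Deviations of same-plate sums correlated with r = 0.194 (members and others) and 0.0957 to 0.162 (4 classes). The main fit had no block. limma 3.58.1 (log2 of CPM + 1) and DESeq2 1.42.0 were alternatives. The code was tested on simulated counts.

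Named were up to 12 called genes per direction in the main comparison and 5 in the others, at 50 CPM or more, then rule, marker and list genes. Members and lists were chosen with earlier results of these data known. Promoters came from RefSeq. Some list genes enter the counts and medians and are not reported here by name.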

Additional observations from a re-analysis of the deposited data

Results flagged for a closer look

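Reads of Ngfr or L1cam at 10 CPM or more were also present in cells outside the comparisons of noncycling cells. They were found in 65 of 110 cycling cells, 59.1% (exact 95% binomial interval 49.3 to 68.4%), where a count of 0 would allow up to 2.73%. By plate the share was 56.6% and 61.4%, against 27.1% and 32.6% of Cdkn1c-high cells and 3.39% and 1.67% of Ncmap-positive cells. Cycling cells had a median of 805901 reads.

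Among the 122 wells left out for fewer than 1500 genes, 10 passed the same limit, 8.2% (4.0 to 14.6%), where a count of 0 would allow up to 2.46%. These wells had a median of 5684 reads, so that 1 read there exceeds 10 CPM.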

How the results depend on the processing

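With the plate as a replicate block, edgeR called 16 genes against all other noncycling cells (main value 6) and 9 against Cdkn1c-high cells (main value 2). The paired fit ended the call of Cxcl1 (adjusted p = 0.0558, log2 fold change 6.12) and of Slc9a3 against Ncmap-positive cells (adjusted p = 0.0594), and changed no other named call. DESeq2 called 585 genes against all others, 531 against unmarked, 1208 against Ncmap-positive and 420 against Cdkn1c-high cells and 304 between Ngfr-only and L1cam-only cells. Without the filter on low counts these were 145, 62, 655, 119 and 5, and with limma 24, 0, 476 and 6, and 0 between Ngfr-only and L1cam-only cells. The cause of these differences between tools was not tested.

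Thinning to 100000 reads gave 0 calls against unmarked and 7 against Cdkn1c-high cells. A minimum of 1000 genes per cell gave 0 and 4, and one of 2500 genes gave 22 against all others, 0 against unmarked and 0 against Cdkn1c-high cells. With Ngfr or L1cam at 50 CPM or more, 1 gene was called against all others, 0 against unmarked and 4 against Cdkn1c-high cells, and Csrp2 was the gene left in the first. Cells without Atf3, added after the data were seen, gave 0, 0, 136 and 1. Of the 6 genes called against all others, those shared numbered 5 under the block, thinning and the 1000-gene minimum, 4 under the 2500-gene minimum and 6 under DESeq2, limma and no filter. No result reversed its direction.

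Members were 22.1% of noncycling cells at 50 CPM, 33.3% with at least 1 read of either gene, and 26.9 to 28.9% with 1 plate left out. The difference in median genes was -96.8 with the 1000-gene minimum and -160 to -123 with 1 plate left out. The count of genes 2-fold apart, 264 on both plates, was 719 to 895 when 1 plate alone decided it. With 1 plate left out no test was possible for single genes, since no residual degrees of freedom remain, and the 6 fold changes kept their sign.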
